A study of Homo sapiens with 11 samples.

Results

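Pattern recognition receptors are the proteins with which cells sense microbes, viral nucleic acid and altered host molecules. The 10 genes described here encode such receptors or their direct partners: CD14, TLR2, TLR3, TLR4, LY96, PGLYRP3, PGLYRP4, CLEC7A, NOD2 and OLR1. They were taken by gene symbol from the 22395 genes that had a probe set of their own. Where a symbol had several probe sets, the 1 with the highest mean log2 value was to be chosen by that measure, but each of the 10 had only 1. The family was drawn up with earlier results of the same arrays in view, namely higher PGLYRP4 with tumour necrosis factor (TNF) and lower CD14 with apigenin. Those 2 changes are therefore described without a p-value and left out of the counts of called changes below, and the tests of the other changes are not independent evidence about the family.

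The cells were MDA-MB-468, an established triple-negative breast cancer line from a metastatic pleural effusion, profiled on GeneChip Human Gene 2.1 ST arrays. All were exposed for 24 h. The 3 control arrays carried RNA of untreated cells, 3 arrays RNA of cells given TNF at 40 ng/ml, 2 arrays RNA of cells given apigenin at 40 µM, a plant flavone, and 3 arrays RNA of cells given both agents at those doses. The labels describe the agents as prepared in buffered salt solution at sub-lethal concentrations, describe the control as no treatment, and do not say whether arrays of a group came from separate cultures. The p-values then reflect array-to-array spread alone, and that spread may be technical.

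As background, Toll-like receptors sit in the plasma membrane or in endosomes and pass their signal through adaptor proteins to NF-kB and interferon regulatory factors. CD14 binds bacterial lipopolysaccharide, delivered by the serum protein LBP, and hands it to a complex of TLR4 and the LY96 protein. TLR2 recognises bacterial lipopeptides and TLR3 double-stranded RNA. PGLYRP3 and PGLYRP4 are secreted, bactericidal proteins of epithelia that bind peptidoglycan, the cell wall polymer of bacteria, and NOD2 detects a fragment of it in the cytosol. CLEC7A is the lectin receptor for fungal beta-glucan, and OLR1 is a scavenger receptor for oxidised low-density lipoprotein. TNF, itself a product of these pathways, activates NF-kB, which drives many innate immune genes in epithelial cells.

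Values are log2 probe set summaries, and the median of the probe set means, 2.53, is used as the background level. On that scale the epithelial markers of the labelled cell type were present, with EPCAM at 8.83 or higher and EGFR, which this line carries at high level, at 10.53 or higher on each array. The summed log2 values of 8 epithelial markers lay between 53.3 and 54 in control, 50.8 and 53.1 with TNF, 50.7 and 52.5 with apigenin, and 49.3 and 51.2 with both. KRT19 among them fell by 0.82 with both agents against control (adjusted p = 0.0133). Of 14 monocyte and macrophage markers measured, 9 had a mean below background, among them PTPRC, the pan-leukocyte marker, at 1.32 to 1.61. Others were above it on every array, with CD68 at 4.67 to 6 and CSF1R at 3.92 to 4.57. Of the 14, 8 were tested, and limma called 0 of the 8 in any comparison, with 4 at an unadjusted p under 0.05 in at least 1. Their summed log2 values lay between 36.5 and 37 in control, 35 and 36.2 with TNF, 34.7 and 36.1 with apigenin, and 34.9 and 36.3 with both. Of 3 endothelial markers CDH5 and KDR moved with the treatments. CDH5 rose by 0.92 with TNF and fell by 1.03 with apigenin, and was also called in the combination against TNF. KDR fell by 1.32 with apigenin, while VWF, the other, stayed below background. The summed log2 values of the 3 lay between 9.3 and 10 in control, 10 and 10.8 with TNF, 6.8 and 7.3 with apigenin, and 8.2 and 8.8 with both. Of 4 markers of hormone receptor status, ESR1 and PGR had means below background. The others, GATA3 at 4.58 to 6.5 and FOXA1 at 4.59 to 5.44, were above it on every array. GATA3 was called in the combination against control. The part of these epithelial, monocyte, endothelial and hormone receptor markers in the results was not tested. The first apigenin array spread less than any other (interquartile range 2.4 over the tested genes, against 2.63 to 2.91), and with apigenin the typical gene shifted by -0.18 relative to control. The shift was -0.04 without apigenin 1 and -0.333 without apigenin 2, so it differed between the 2 apigenin arrays.

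Testing required a value at or above background on 2 or more arrays, which 8 of the 10 receptor genes had. TLR4 and LY96 did not. PGLYRP3 passed only through arrays TNF 2 and TNF plus apigenin 1, at 2.56 and 2.6. A linear model of all 11 arrays was fitted to the 15865 tested genes with limma, and a change was called at an adjusted p under 0.05. Of the 8 tested genes, CD14, TLR3, PGLYRP4, CLEC7A and OLR1 were called in at least 1 of the 5 group comparisons, also with the changes in view left out. TLR2, PGLYRP3 and NOD2 were called in none. The remaining calls of CD14 and PGLYRP4 share control or TNF arrays with the changes in view. These calls and their p-values below are therefore not free of that choice. The share of all tested genes called in at least 1 of the 5 was not counted.

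With TNF against control, OLR1 was higher and CD14 lower, 2 of the 7 tested genes other than PGLYRP4, where 0.7% of all tested genes were called (0.473% higher, 0.227% lower). With apigenin against control, TLR3 and CLEC7A were lower, 2 of the 7 other than CD14, where 3.66% of all genes were called (3.44% lower, 0.221% higher). Adding apigenin to TNF lowered PGLYRP4, OLR1 and CLEC7A relative to TNF alone, 3 of 8, where 1.07% of all genes were called (0.681% lower, 0.384% higher). The combination against control gave 2 higher (OLR1 and PGLYRP4) and 1 lower (CD14), where 2.82% of all genes were called (1.04% higher, 1.78% lower). Against apigenin alone it gave 1 higher (OLR1), where 0.574% of all genes were called (0.529% higher). Several of these comparisons share arrays, so their counts are not independent of each other. Since the family was chosen with results known, these shares describe it and do not set it apart from other genes.

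**Figure D1:**
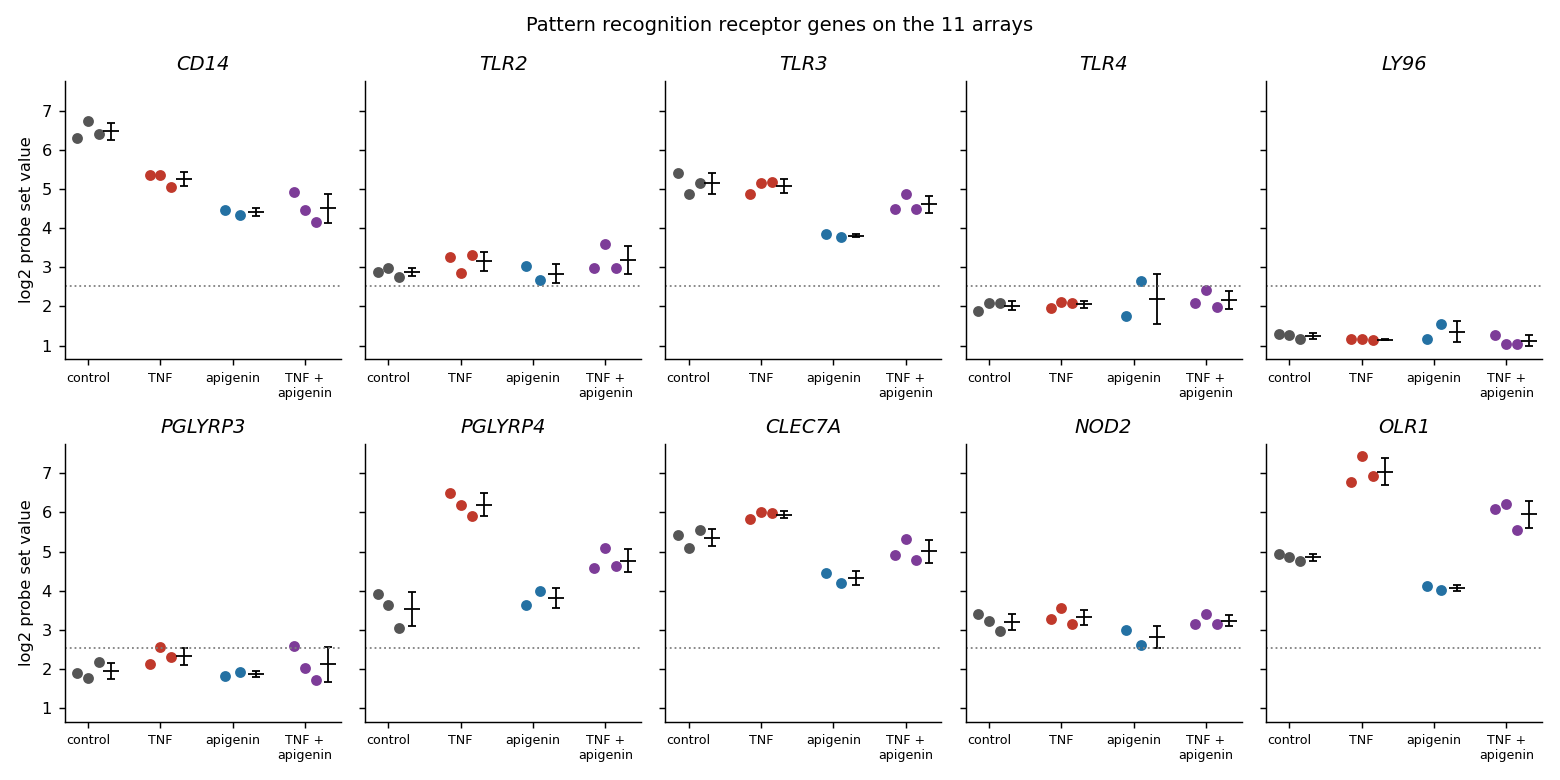
Log2 probe set value of each receptor gene on every array (vertical axis) by group (horizontal axis). Points are arrays, the bar beside them is the group mean with its SD (n = 3, for apigenin n = 2), and the dotted line is the background level of 2.53. PGLYRP4 and OLR1 are highest with TNF, CD14 is highest in control, and TLR4 and LY96 lie near or below the line.

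CD14, the lipopolysaccharide co-receptor, was highest in untreated cells. Its log2 values were 6.3, 6.72 and 6.4 in control, 5.35, 5.35 and 5.05 with TNF, 4.47 and 4.34 with apigenin, and 4.91, 4.45 and 4.15 with both. Every treated array lay below every control array, and the arrays of apigenin alone lay within the range of the combination. Apigenin against control, one of the contrasts in view when the family was drawn up, left CD14 4.18-fold lower, a log2 difference of -2.06 ± 0.23. Relative to the median of all genes this was -1.89.

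TNF alone also lowered CD14. The level went from 6.47 ± 0.22 (SD, n = 3) to 5.25 ± 0.17, a log2 change of -1.22 ± 0.2 or 2.33-fold lower (limma adjusted p = 0.00829). That call was lost without array control 2 (-1.1, adjusted p = 0.0523) and without TNF 3 (-1.12, adjusted p = 0.0564). With both agents CD14 fell by 1.97 (SE 0.2), or 3.91-fold, against control (adjusted p = 0.000119). Against TNF alone the combination differed by -0.75 ± 0.2 (adjusted p = 0.116), and against apigenin alone by 0.1, with a 95% interval of -0.39 to 0.59 (adjusted p = 0.879). The smaller of these differences changed sign when arrays were brought to a common scale, to -0.16 after quantile normalization and -0.11 after a median shift.

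The rest of the lipopolysaccharide receptor was at background. TLR4 lay between 1.75 and 2.65 over the 11 arrays, with 1 of them (apigenin 2) above the background level, and group means from 2.02 ± 0.12 in control to 2.2 ± 0.64 (SD, n = 2) with apigenin. LY96 lay between 1.04 and 1.55, below background on every array. LBP, which delivers lipopolysaccharide to CD14, was measured above background and fell by 1.26 (SE 0.22) with apigenin (adjusted p = 0.00641, a call lost in 1 of 11 single-array omissions) and by 0.83 (SE 0.2) with both agents (adjusted p = 0.0352, lost in 4). With TNF alone LBP differed from control by -0.19 ± 0.2 (adjusted p = 0.931). Here and below, omitting an array outside the 2 groups compared leaves the change as it was and alters only the estimated spread and p-values. In bulk RNA, fewer cells that express a gene and less RNA per cell cannot be told apart.

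The stretch from 250 bases before to 25 bases after the CD14 start is shown because CD14 differed in each treatment group. It is chr5:140633151-140633425, minus strand, from RefSeq on GRCh38.p14. Capitals mark the matches to the motifs searched, TGAGTCA for AP-1 and TTCCAGGAA for GAS, the STAT-binding motif.
CD14: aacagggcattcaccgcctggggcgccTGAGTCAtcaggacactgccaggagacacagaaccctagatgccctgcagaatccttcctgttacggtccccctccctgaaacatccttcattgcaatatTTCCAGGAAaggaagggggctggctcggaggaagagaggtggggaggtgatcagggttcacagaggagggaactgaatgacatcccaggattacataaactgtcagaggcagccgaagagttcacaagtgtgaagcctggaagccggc

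TLR2, the lipopeptide receptor, was close to background in all groups. Its log2 values were 2.87, 2.97 and 2.76 in control, 3.27, 2.86 and 3.31 with TNF, 3.02 and 2.67 with apigenin, and 2.99, 3.59 and 2.99 with both. The groups overlapped except for the combination, whose arrays all lay above those of control. It was not called in any comparison. The TNF difference was 0.28, with a 95% interval of -0.15 to 0.71 (adjusted p = 0.879), and the difference between the combination and control 0.32, with an interval of -0.11 to 0.75 (adjusted p = 0.489).

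TLR3, the endosomal sensor of double-stranded RNA, was lower with apigenin alone. Its values were 5.4, 4.86 and 5.15 in control, 4.86, 5.16 and 5.18 with TNF, 3.85 and 3.78 with apigenin, and 4.49, 4.86 and 4.49 with both. The apigenin arrays were the lowest of the 11, the TNF and control arrays overlapped, and the combination lay between, level with the lowest control and TNF arrays at its highest. Apigenin lowered TLR3 from 5.14 ± 0.27 (SD, n = 3) to 3.81 ± 0.05 (SD, n = 2), a log2 change of -1.32 ± 0.21 or 2.5-fold (adjusted p = 0.00364), and -1.15 relative to the median of all genes. Omitting each of the 11 arrays in turn kept the call, with changes from -1.46 to -1.19.

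With TNF present the TLR3 differences were smaller. The combination differed from TNF alone by -0.46 ± 0.19 (adjusted p = 0.357), from control by -0.52 ± 0.19 (adjusted p = 0.167) and from apigenin alone by 0.8 ± 0.21 (adjusted p = 0.0965), none of which passed. TNF alone differed from control by -0.07, with an interval of -0.47 to 0.33. The interaction is the TNF effect in the presence of apigenin minus that in its absence. It was 0.87 ± 0.28 (limma adjusted p = 0.505), so a different TNF effect was not shown. Relative to the median of all genes the interaction was 0.64.

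The TLR3 stretch is shown because a motif lies across its start. It is chr4:186068906-186069180, plus strand, from RefSeq on GRCh38.p14, and capitals mark matches to GAS (TTCAATGAA and TTCTTGGAA) and to the interferon-stimulated response element, ISRE (TTTCACTTTC, the reverse strand of the motif), which begins 4 bases before the start.
TLR3: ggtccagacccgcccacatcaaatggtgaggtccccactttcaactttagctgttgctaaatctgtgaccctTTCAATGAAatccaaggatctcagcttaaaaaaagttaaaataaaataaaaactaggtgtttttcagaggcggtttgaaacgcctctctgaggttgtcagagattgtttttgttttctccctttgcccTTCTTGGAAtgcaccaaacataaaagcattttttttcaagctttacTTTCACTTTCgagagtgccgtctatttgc

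The peptidoglycan-binding proteins PGLYRP3 and PGLYRP4 are encoded by neighbouring genes on chromosome 1, with 0 protein-coding genes between them in RefSeq. PGLYRP4 read 3.91, 3.63 and 3.06 in control, 6.49, 6.2 and 5.92 with TNF, 3.64 and 4 with apigenin, and 4.57, 5.1 and 4.63 with both. The TNF arrays were the highest, the combination was next without overlap, and control and apigenin overlapped. TNF against control, the other contrast in view when the family was drawn up, differed by 2.67 (SE 0.24), or 6.38-fold.

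Apigenin added to TNF lowered PGLYRP4. The level went from 6.2 ± 0.29 (SD, n = 3) with TNF to 4.77 ± 0.29 with both, a log2 change of -1.44 ± 0.24 or 2.71-fold (adjusted p = 0.00712). That call held whichever of the 11 arrays was omitted (-1.61 to -1.29). The combination still exceeded control, by 1.24 ± 0.24 or 2.36-fold (adjusted p = 0.0104). The latter call was lost without control 3 (1, adjusted p = 0.0519) and without TNF plus apigenin 2 (1.07, adjusted p = 0.0656). Against apigenin alone the combination was 0.95 ± 0.27 higher (adjusted p = 0.122), and apigenin alone differed from control by 0.29, with an interval of -0.28 to 0.86 (adjusted p = 0.593).

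PGLYRP3 read 1.89, 1.77 and 2.18 in control, 2.13, 2.56 and 2.31 with TNF, 1.82 and 1.93 with apigenin, and 2.6, 2.04 and 1.71 with both. The groups overlapped, and 2 of 11 arrays reached background. Its TNF difference was 0.38, with an interval of -0.08 to 0.85 (adjusted p = 0.772), and it was not called in any comparison. The difference in TNF effect between the neighbours was not tested.

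The stretches upstream of both genes are shown because these neighbouring genes of 1 family share much of their sequence there. They are chr1:153312928-153313202 for PGLYRP3 and chr1:153348817-153349091 for PGLYRP4, both minus strand, from RefSeq on GRCh38.p14. In a global alignment 68.6% of 293 columns were identical. Capitals mark the longest shared run, 65 bases, which begins 77 bases before the PGLYRP3 start and 76 before that of PGLYRP4.
PGLYRP3: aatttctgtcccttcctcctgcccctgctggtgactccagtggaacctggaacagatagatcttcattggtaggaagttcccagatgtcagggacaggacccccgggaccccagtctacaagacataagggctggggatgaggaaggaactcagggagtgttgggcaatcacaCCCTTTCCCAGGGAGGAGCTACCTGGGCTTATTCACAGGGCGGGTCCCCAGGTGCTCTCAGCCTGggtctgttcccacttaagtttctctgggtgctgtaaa
PGLYRP4: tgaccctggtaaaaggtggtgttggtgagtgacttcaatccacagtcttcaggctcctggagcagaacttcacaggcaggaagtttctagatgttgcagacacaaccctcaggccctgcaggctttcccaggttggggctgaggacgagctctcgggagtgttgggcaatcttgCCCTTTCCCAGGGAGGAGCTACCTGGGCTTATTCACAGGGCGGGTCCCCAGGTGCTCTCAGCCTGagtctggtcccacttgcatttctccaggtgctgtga

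Of the 10 genes, 7 had such a stretch in the RefSeq table; CLEC7A, OLR1 and LY96 did not. They were searched on both strands for 5 motifs: the kappaB consensus, by name, AP-1 (TGANTCA), ISRE (GAAA, any 2 bases, then GAAA), GAS (TTCNNNGAA) and the core of the xenobiotic response element (GCGTG). Among 35114 stretches of the same length these were present in 10.5%, 7.21%, 3.35%, 7.18% and 34.4%, in that order. The kappaB consensus was matched once, by GGAAGTTCCC upstream of PGLYRP3, which did not pass the test with TNF, and not upstream of PGLYRP4. TLR4 held the xenobiotic core just after its start, and TLR2 and NOD2 held none of the 5. No 2 matches overlapped, and a match is a run of letters and does not show that a factor binds there.

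NOD2, the cytosolic peptidoglycan sensor, read 3.4, 3.22 and 2.98 in control, 3.27, 3.55 and 3.15 with TNF, 3.01 and 2.62 with apigenin, and 3.15, 3.41 and 3.15 with both. All arrays lay within 0.93 log2 units of each other, and the apigenin arrays were the lowest apart from control 3. It was not called in any comparison, with a difference of 0.13 for TNF (interval -0.27 to 0.52) and -0.38 for apigenin (interval -0.82 to 0.06, adjusted p = 0.329). RIPK2, the kinase that NOD2 engages, rose with the combination by 1.12 ± 0.22 against control (adjusted p = 0.0118, lost in 2 of 11 single-array omissions) and differed by 0.81 ± 0.22 with TNF alone (adjusted p = 0.171).

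CLEC7A and OLR1 lie next to each other on chromosome 12, again with 0 protein-coding genes between them. OLR1, the scavenger receptor, read 4.94, 4.86 and 4.76 in control, 6.77, 7.43 and 6.92 with TNF, 4.13 and 4.01 with apigenin, and 6.08, 6.21 and 5.55 with both. The 4 groups did not overlap: apigenin was lowest, then control, then the combination, then TNF. TNF raised OLR1 from 4.85 ± 0.09 (SD, n = 3) to 7.04 ± 0.35, by 2.18 ± 0.21 or 4.54-fold (adjusted p = 5.5e-05). The call held whichever of the 11 arrays was omitted (1.99 to 2.32).

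OLR1 also rose when TNF was added to apigenin, by 1.87 ± 0.24 or 3.67-fold over apigenin alone (adjusted p = 0.00157), a call that also held whichever array was omitted (1.74 to 2.07). Relative to the median of all genes that rise was 1.71. Apigenin lowered OLR1 in the presence of TNF, by 1.09 on the log2 scale (-1.09 ± 0.21) or 2.13-fold (adjusted p = 0.0191). The latter call was lost without TNF 2 (-0.89, adjusted p = 0.108), without TNF plus apigenin 3 (-0.89, adjusted p = 0.0839) and in a fit of these 2 groups alone (adjusted p = 0.0737). Apigenin alone differed from control by -0.78 ± 0.24 (adjusted p = 0.0818), which did not pass. With both agents OLR1 stayed above control by 1.09 ± 0.21 (adjusted p = 0.0104), a call lost without TNF plus apigenin 2 (0.96, adjusted p = 0.0656).

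CLEC7A, the beta-glucan receptor, read 5.42, 5.1 and 5.54 in control, 5.83, 6 and 5.99 with TNF, 4.46 and 4.21 with apigenin, and 4.92, 5.33 and 4.78 with both. TNF arrays were highest and apigenin arrays lowest, and control and the combination overlapped. Apigenin lowered it by 1.02 on the log2 scale (-1.02 ± 0.21) or 2.02-fold against control (adjusted p = 0.0162), and -0.84 relative to the median of all genes. The addition of apigenin to TNF lowered it by 0.93 (-0.93 ± 0.19) or 1.9-fold (adjusted p = 0.0239). The TNF difference, 0.59 ± 0.19 without apigenin (adjusted p = 0.309) and 0.68 ± 0.21 with it (adjusted p = 0.155), did not pass.

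Both CLEC7A calls were lost when single arrays were omitted. The apigenin call was lost without control 1 (-0.98), control 3 (-0.93), apigenin 1 (-1.14) or apigenin 2 (-0.89), after quantile normalization (-0.74, adjusted p = 0.0573) and in a fit of these 2 groups alone (adjusted p = 0.078). The call of the combination against TNF was lost without TNF 1 (-0.98), TNF 2 (-0.9), TNF 3 (-0.91), TNF plus apigenin 1 (-0.89) or TNF plus apigenin 3 (-0.81), and in a fit of these 2 groups alone (adjusted p = 0.051). SYK, the kinase that CLEC7A recruits, fell with apigenin by 0.91 (SE 0.2, adjusted p = 0.0232, lost in 3 of 11 single-array omissions), and CARD9, the adaptor below it, differed by -0.19 ± 0.18 (adjusted p = 0.605).

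**Figure D2:**
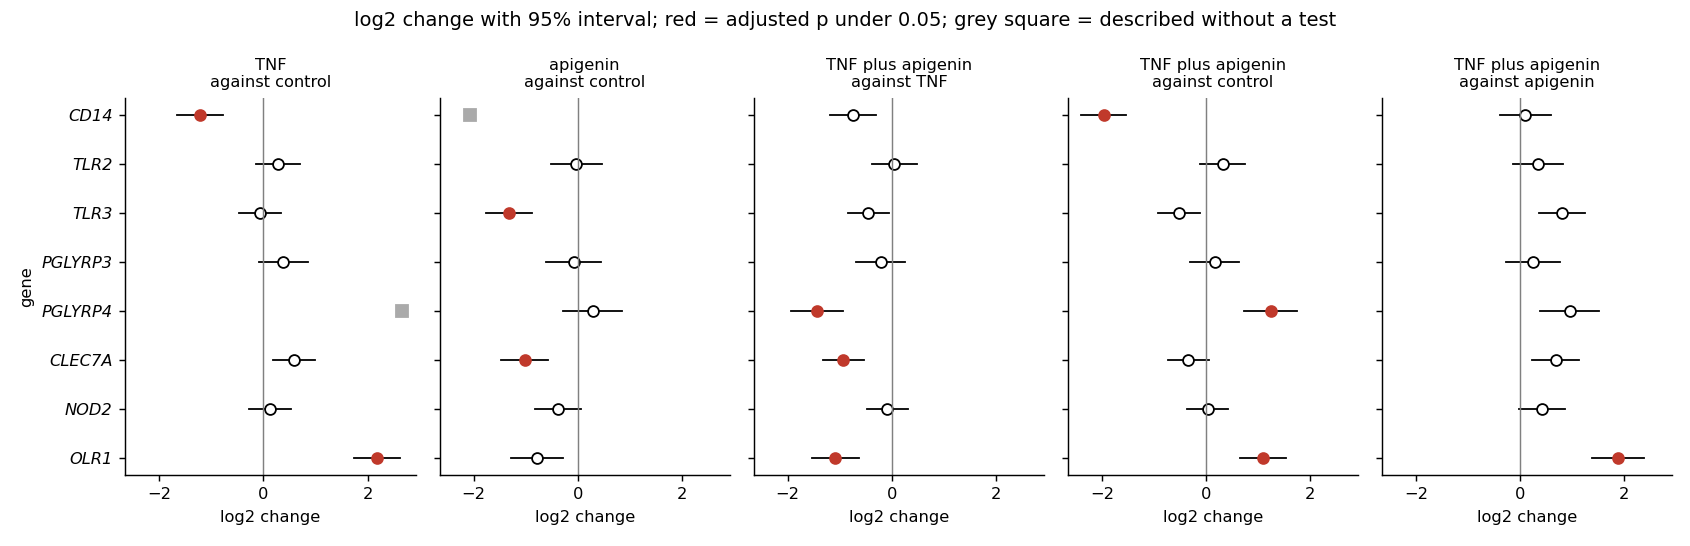
Log2 change (horizontal axis) of the 8 tested receptor genes (vertical axis) in the 5 group comparisons, with 95% intervals from limma. Red points have an adjusted p under 0.05, and grey squares are the 2 changes described without a test. OLR1 is red in 4 of the 5 panels and TLR3 in the apigenin panel.

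No interaction passed the test among the receptor genes: limma called 0 of 8 (0.0252% of all genes), with 3 at an unadjusted p under 0.05. These were PGLYRP4 at -1.73 ± 0.36, CD14 at 1.32 ± 0.31 and TLR3. The interactions of PGLYRP4 and CD14 include the contrasts that were in view when the family was drawn up. Both are therefore given without a p-value, and their place among the 3 is not free of that choice. Over all tested genes, 1294 had an unadjusted p under 0.05 for the interaction. For PGLYRP4 the TNF difference was 2.67 without apigenin and 0.95 with it, for CD14 -1.22 and 0.1. For OLR1 it was 2.18 and 1.87, and the interaction was -0.31, with an interval of -0.98 to 0.36. The smallest interaction in size was that of TLR2, at 0.07 (interval -0.58 to 0.72).

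Other genes of pattern recognition were read from 7 lists of 120 genes in all, of which 111 had a probe set and 81 were tested. The lists were written with results of these data known, so their shares, here and below, do not set them apart from other genes. With TNF 3 rose and 0 fell. They were RIGI, a cytosolic RNA sensor (1.09 ± 0.21, adjusted p = 0.0293, lost in 4 of 11 single-array omissions), the kinase gene IKBKE (1.84 ± 0.19) and TNFAIP3, which encodes the inhibitor A20 (3.39 ± 0.19). That is 3.7% of the 81, where 0.7% of all tested genes were called, with a median change of -0.02 (all genes -0.04). Of 9 other Toll-like receptors and co-receptors limma called 0 with TNF, with 1 at an unadjusted p under 0.05, and TLR6, a partner of TLR2, was at 1.01 ± 0.22 (adjusted p = 0.0536). Of the 14 other NOD-like and peptidoglycan receptors limma called 0 in every comparison, with at most 2 at an unadjusted p under 0.05, with PGLYRP1 at -0.31 ± 0.25 and PGLYRP2 at -0.28 ± 0.16 for TNF.

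With apigenin 0 of the 81 rose and 6 fell, or 7.41%, where 3.66% of all tested genes were called, and the median change was -0.18 in the lists and over all genes. Besides LBP and SYK these were SCARA3, a class A scavenger receptor gene (-1.23 ± 0.24), STING1 (-0.93 ± 0.2) and MAVS (-0.91 ± 0.2), which relay signals of cytosolic DNA and RNA sensors, and CYLD, whose product removes ubiquitin chains from NF-kB regulators (-1.27 ± 0.3). The calls of SCARA3, STING1, MAVS and CYLD were lost in 2, 2, 3 and 3 of 11 single-array omissions. List medians with apigenin were -0.71 for the cytosolic nucleic acid sensors (7 of 10 tested), -0.32 for inhibitors, -0.21 for adaptors and kinases, -0.15 for NOD-like and peptidoglycan receptors and -0.04 for Toll-like receptors and co-receptors. They were 0 for C-type lectin and scavenger receptors and 0.01 for soluble molecules, so 3 of the 7 lay below the median of all genes.

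The combination against TNF gave 1 call in these lists (1.23%, all genes 1.07%), IKBKE, which fell by 0.96 (SE 0.19, adjusted p = 0.0216, lost in 5 of 11 single-array omissions). Against control, 6 rose and 4 fell (12.3% of the 81, all genes 2.82%). PTX3, a soluble pattern recognition molecule, rose by 1.08 ± 0.2 (adjusted p = 0.00776), as did RIPK2, TRAF3 (0.99 ± 0.24, lost in 6 of 11 omissions), IKBKE (0.88 ± 0.19, lost in 4), TNFAIP3 (3.67 ± 0.19) and CYLD (1.41 ± 0.27, lost in 1). LBP, SCARA3 (-0.91 ± 0.22, lost in 5), MAVS (-0.99 ± 0.18) and STING1 (-0.87 ± 0.18, lost in 3) fell. Against apigenin 9 rose and 0 fell (11.1%, all genes 0.574%). The largest changes were those of TNFAIP3 (3.73 ± 0.22), CYLD (2.67 ± 0.3), TRAF3 (1.6 ± 0.27, lost in 3) and IKBKE (1.56 ± 0.21). Next came TNIP1, a partner of A20 (1.42 ± 0.23, lost in 3), and IFIH1, an RNA sensor (1.31 ± 0.22, lost in 3). The rest were PTX3 (1.2 ± 0.22, lost in 3), RIGI (1.18 ± 0.24, lost in 6) and RIPK2 (1.17 ± 0.25, lost in 9).

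**Figure D3:**
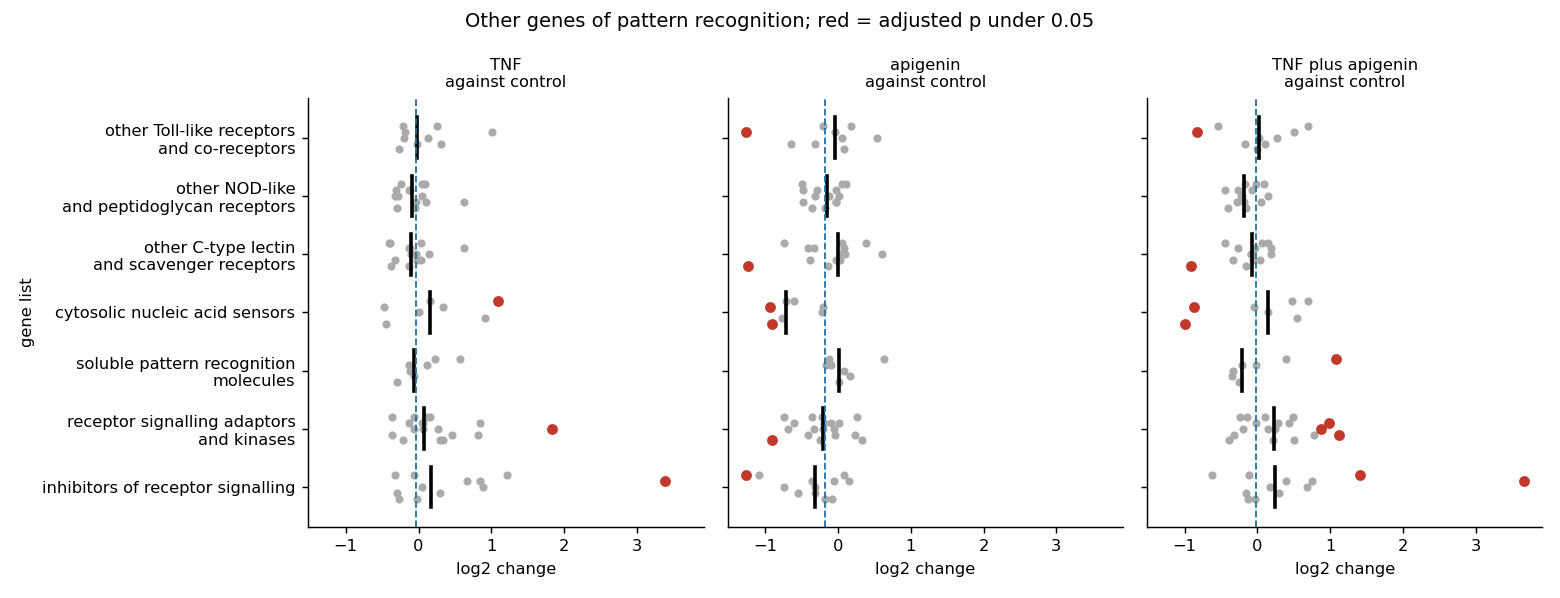
Log2 change (horizontal axis) of 81 other pattern recognition genes in 7 lists (vertical axis), for TNF, apigenin and the combination against control. Each point is a gene, red points have an adjusted p under 0.05, black bars are list medians and the dashed line is the median of all genes. The red points on the right with TNF are TNFAIP3, IKBKE and RIGI, and the 6 red points with apigenin all lie left of 0.

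Genes whose values ran most like those of the called receptors were found by Pearson correlation over the 11 arrays, a description in which the points share their groups and arrays. For OLR1 these were MMP7 (r = 0.984), SLC2A12 (0.98) and CTNNAL1 (0.976). For PGLYRP4 they were CXCL10 (0.961), ABCC4 (0.953) and ATP6V0E2-AS1 (0.942). For CD14 they were IRX3 (0.99), PLAAT3 (0.981) and PLAAT4 (0.975), for TLR3 CHMP2B (0.977), TAF9B (0.972) and DOCK11 (0.971), and for CLEC7A STEAP4 (0.982), CPM (0.978) and SLC6A14 (0.974). The 5 sets of 3 had no gene in common.

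Leaving out the 2 changes in view when the family was drawn up, the receptor genes gave 11 called changes over the 5 group comparisons. Of these, 5 were kept in all 11 single-array omissions and 6 were lost in at least 1. None of the 11 changed sign under any of the 19 settings tried. Those of CD14 and PGLYRP4 share control or TNF arrays with the 2 changes left out and are not free of that choice. Among the 5 kept, this applies to CD14 in the combination against control and to PGLYRP4 in the combination against TNF.

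**Figure D4:**
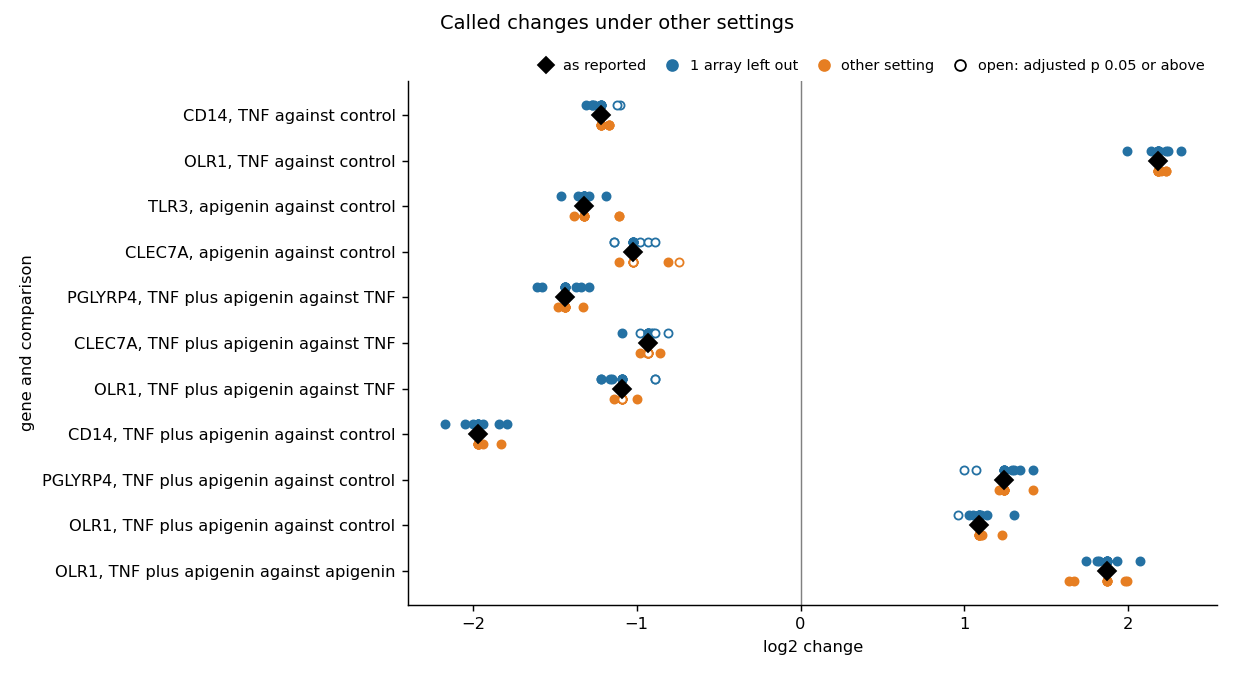
Log2 change (horizontal axis) of the 11 called changes (vertical axis) as reported (diamonds), with 1 array left out (blue) and under other settings (orange). Open points have an adjusted p of 0.05 or above. Every point lies on the same side of 0 as its diamond, and open points gather in the CLEC7A rows.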

How the data were processed

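The deposited values were log2 probe set summaries of 53617 probe sets, which, per the submitters' processing notes, came from Affymetrix Expression Console. For its version, summarisation, normalization across arrays and annotation build the sources used here give nothing, and the log base was inferred from the range of 0.38 to 12.31. Detection calls were not used here. Probe sets with 1 gene symbol (23871) were paired with genes through the array's annotation, with names updated through RefSeq (GRCh38.p14). For 632 genes with several, the highest mean over the arrays was used. Group means were estimated by linear models (limma 3.58.1 under R 4.3.3, lmFit then eBayes, 7 residual degrees of freedom, tested on simulated data). P-values were two-sided and adjusted by Benjamini-Hochberg over all tested genes. Errors after ± are moderated standard errors for changes and SD for group means. The receptor genes and the 7 lists were chosen with earlier results of these data known. Named were all 10 receptor genes, in each list and comparison at most the 3 highest and 3 lowest called genes, and the 3 most correlated genes of each called receptor. Genes of the lists named without a call (TLR6, PGLYRP1, PGLYRP2 and CARD9) were chosen after their values were seen. The number of arrays limits the precision. The alternatives were other normalizations, filters, array weights, a replicate block, other variance settings, fits of the compared groups alone, and each array left out.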

Additional observations from a re-analysis of the deposited data

How the results depend on the processing

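None of the 11 called changes, leaving out the 2 in view when the genes were chosen, reversed under any of the 19 settings. Of the 48 receptor gene changes in the 6 comparisons, 11 changed sign under at least 1 setting, all of them uncalled. After quantile normalization TLR2 with apigenin was at 0.05, CD14 in the combination against apigenin at -0.16, and the interactions of TLR2 and CLEC7A at -0.03 and -0.2. After a median shift the same 4 were at 0.18, -0.11, -0.19 and -0.17, PGLYRP3 with apigenin was at 0.14, and TLR2 in the combination against TNF at 0. With array weights TLR2 with apigenin was at 0.02 and the interaction of PGLYRP3 at 0.

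With single arrays left out, TLR3 with TNF ran from -0.2 to 0.06, TLR2 with apigenin from -0.2 to 0.15, PGLYRP3 with apigenin from -0.16 to 0.04, TLR2 and NOD2 in the combination against TNF from -0.16 to 0.14 and from -0.17 to 0.03, PGLYRP3 and NOD2 in the combination against control from -0.07 to 0.37 and from -0.07 to 0.14, and CD14 in the combination against apigenin from -0.11 to 0.27. The interactions of TLR2, PGLYRP3 and CLEC7A ran from -0.13 to 0.24, -0.38 to 0.06 and -0.07 to 0.22. Without an apigenin array that group has 1 array, assumed to vary like the others.

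The count of called receptor genes in the combination against TNF was 3, 1 in a fit of these 2 groups alone and 1 to 3 with an array left out (1 without TNF 2 or TNF plus apigenin 3). In the combination against control it was 3, and 1 to 3 with an array left out (1 without TNF plus apigenin 2). The causes were not tested. Another probe set per gene was not run as an alternative, since each receptor gene had 1.

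With the replicate number as a block, OLR1 with apigenin passed (-0.88, adjusted p = 0.0453), and no other receptor gene call changed. Whether the numbers pair the arrays was not tested. Deviations from group means correlated between -0.24 and 0.28 in same-numbered pairs and between -0.39 and 0.19 in other pairs. Of 11 arrays, 6 correlated best with an array of their own number. The block moved the calls over all genes from 581 to 712 for apigenin and from 111 to 106 for TNF.

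Calls over all genes moved more. With an array left out they ran from 60 to 128 for TNF (111 in the full fit), 84 to 1290 for apigenin (581), 85 to 197 for the combination against TNF (169), 206 to 538 against control (447) and 18 to 598 against apigenin (91). Under other settings they ran from 76 to 221, 103 to 712, 126 to 521, 356 to 1285 and 16 to 135. Calls with apigenin were 35 higher and 546 lower, but 173 and 357 after quantile normalization. In the combination they were 165 and 282 against control, and 611 and 674 after quantile normalization, and 84 and 7 against apigenin, and 82 and 25.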
